A study of Mus musculus with 4 samples.

Results

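Endothelial cells (ECs) that held von Willebrand factor together with a vein gene were examined in the lungs of bleomycin-treated mice. A cell was taken when it held at least 1 UMI (unique molecular identifier, 1 captured RNA molecule) of Cdh5, the VE-cadherin of EC junctions, at least 1 UMI of Vwf, and at least 1 UMI of Slc6a2, Amigo2 or Vegfc, with Gja5, Ednrb, Prox1, Ptprc, Epcam and Pdgfra all at 0. Of the 30860 cells with 200 to 7500 genes and at most 15% mitochondrial UMIs, 509 met these conditions. They made up 15.6% of the 3262 ECs, which were cells with Cdh5 and without Ptprc, Epcam and Pdgfra. Since measured UMIs of these 11 genes chose the cells, those genes are given below as descriptions, with no test.

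The veins of the lung drain the capillary bed, and their endothelium is known to depend on the transcription factor Nr2f2 for vein identity. Small veins are also where leukocytes leave the blood: P-selectin, stored with von Willebrand factor in endothelial granules, catches rolling leukocytes, and ICAM-1 and VCAM-1 then hold them. Slc6a2 encodes the noradrenaline transporter, Amigo2 a leucine-rich repeat adhesion protein, and Vegfc a growth factor best known as a ligand of the lymphatic receptor VEGFR3. Lung capillaries are known to hold general capillary ECs, marked by Gpihbp1 and Kit, and aerocytes, marked by Car4 and Ednrb.

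The mice were Tubb3-/- animals, which lack β-III tubulin in every cell of the body, and their wild-type (WT) littermates, with 2 of each. Each had received 0.8 U/kg bleomycin into the trachea, and lungs were taken at day 14. By the study's methods the mice were young adults, and no untreated lung was analysed here. From each mouse came a whole-cell library, depleted of TER-119+ erythroid cells, and a mural cell-enriched mesenchymal library, additionally depleted of CD31+, CD45+ and EpCAM+ cells and sorted on MCAM and PDGFRα. Since CD31 marks ECs, the gated cells of the second library are ECs that passed that depletion. The gate took 378 cells from the whole-cell libraries and 131 from the mural cell-enriched libraries. It took 62 and 116 cells from the WT mice and 182 and 149 from the Tubb3-/- mice, and no cell barcode was shared among them. Of these, 15 and 43 in the WT mice against 35 and 38 in the Tubb3-/- mice came from the mural cell-enriched libraries. The mix of the 2 libraries thus differed between mice.

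Depth differed between the genotypes. A gated cell held 780 to 51445 UMIs, with medians of 6888 and 7496 in WT mice against 9845 and 9201 in Tubb3-/- mice. Tubb3 itself was nearly absent from the gated cells, with 0 and 1 UMIs in WT mice against 0 and 0 in Tubb3-/- mice. Over all cells kept it stood at 3.99 and 2.42 CPM (UMIs scaled to a common total) in WT mice against 0.517 and 0.529 CPM in Tubb3-/- mice, the direction of the labels. The mice numbered 1 carried Y-linked transcripts and those numbered 2 carried Xist, so each genotype held 1 male and 1 female, and the mouse number cannot be told apart from sex.

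The gate held several kinds of cell. Vegfc was the sole vein gene in 316 of the 509 cells (62.1%), whereas 115 cells held Slc6a2 and 78 held Amigo2 without Slc6a2. The Slc6a2 cells had a median of 21 Vwf UMIs, the Amigo2 cells 4.5 and the Vegfc-only cells 3. At the edge of the rule, 103 cells entered on a single Vwf UMI and 75 on 2, and 119 cells held just 1 UMI of Slc6a2, Amigo2 and Vegfc combined. Just outside it, 355 cells met the other conditions with Vwf at 0, and 566 had Vwf with none of the 3 vein genes. The rule genes also appeared in immune cells, with Vwf in 11.4% of 5386 such cells (2.56% after thinning to 3000 UMIs). Slc6a2 was in 0.817% of them, Amigo2 in 2.77% and Vegfc in 4.03%, at a median of 7384 UMIs. Whether this is background or RNA of the immune cells themselves was not tested. Vegfc was present in 28.2% of general capillary ECs (median 6601 UMIs), where its level was 118, 121, 109 and 123 CPM in the 4 mice against 546, 455, 437 and 385 in the gated cells.

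**Figure D1:**
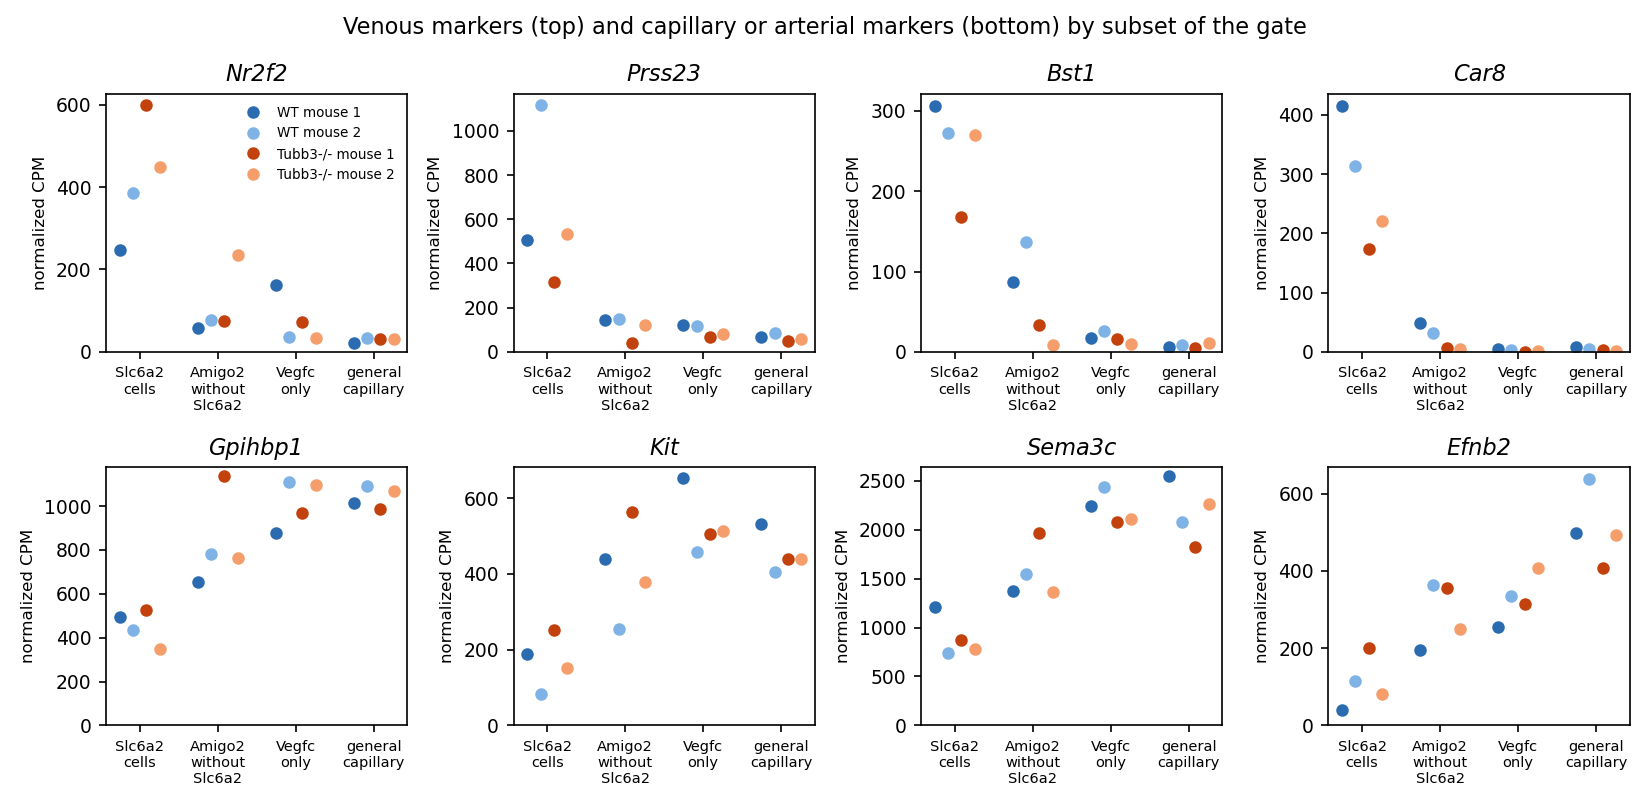
Normalized CPM (linear axis from 0) of 4 vein genes (top) and 4 capillary or arterial genes (bottom) in each of the 4 mice, for the 3 kinds of gated cell and for general capillary ECs. The vein genes are high in Slc6a2 cells in each mouse, while the Vegfc-only cells sit near the general capillary ECs in most panels.

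Several vein markers that the rule did not use had their highest levels in the Slc6a2 cells, which were 22.6% of the gate. Levels are CPM of the summed UMIs of a cell group in a mouse, scaled by TMM over all groups (normalized CPM), and are given for WT mouse 1, WT mouse 2, Tubb3-/- mouse 1 and Tubb3-/- mouse 2 in turn. Nr2f2, the vein identity factor, stood at 247, 387, 599 and 448 in Slc6a2 cells. In Vegfc-only cells it stood at 161, 37.2, 71.4 and 32.6, and in general capillary ECs (Gpihbp1 without Vwf, 930 cells) at 22.5, 33.0, 31.0 and 31.3. The Slc6a2 cells were thus the highest of the 3 in every mouse. Car8, a carbonic anhydrase-related protein, was at 416, 314, 174 and 221 in Slc6a2 cells and between 0 and 4.25 in Vegfc-only cells. Bst1, the surface enzyme CD157, was at 307, 273, 168 and 271 against 9.31 to 26.6. Prss23, a secreted serine protease, averaged 617 (SD 346, n = 4 mice) in Slc6a2 cells, 98.0 (SD 27.0) in Vegfc-only cells and 65.0 (SD 14.9) in general capillary ECs.

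Ackr1, the chemokine receptor of venules, was nearly confined to Slc6a2 cells, with 32, 38, 139 and 49 UMIs. The exception was WT mouse 1, whose Vegfc-only cells held 52 Ackr1 UMIs, against 0 in the other 3 mice. Ephb4, the receptor that marks veins in development, differed less: it was at 178, 269, 217 and 305 in Slc6a2 cells, averaged 194 (SD 21.4) in Vegfc-only cells, with overlap, and 151 (SD 9.35) in general capillary ECs, without. Vwf itself, which chose the cells, was at 2137, 3218, 2382 and 3678 in Slc6a2 cells and at 573, 397, 443 and 394 in Vegfc-only cells.

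Capillary markers ran the other way. Kit, a receptor of general capillary ECs, was at 654, 457, 505 and 514 in Vegfc-only cells and at 188, 82.9, 251 and 153 in Slc6a2 cells, so that the mice did not overlap. Gpihbp1, which anchors lipoprotein lipase in capillaries, averaged 1015 (SD 111) in Vegfc-only cells, 1042 (SD 48.9) in general capillary ECs and 451 (SD 78.5) in Slc6a2 cells. Sema3c averaged 2216 (SD 165), 2181 (SD 305) and 900 (SD 212) in the same order, and the arterial ligand Efnb2 328 (SD 62.7), 509 (SD 96.3) and 108.5 (SD 67.9). The Amigo2 cells lay between, with a Gpihbp1 level of 834 (SD 211) and a Nr2f2 level of 112 (SD 82.9). Ackr3, a chemokine scavenger on the vein list, lay between in Vegfc-only cells, at 229, 266, 502 and 364 against 683, 687, 855 and 772 in Slc6a2 cells and 169, 154, 320 and 237 in general capillary ECs, and was the higher of the last 2 in each mouse. Ptgs1 did so too, with means of 112 (SD 33.6), 242 (SD 29.0) and 45.2 (SD 11.2). The label of a vein population therefore held for the Slc6a2 cells, while the Vegfc-only cells were near general capillary ECs in Car8, Bst1, Kit and Gpihbp1 and between the 2 kinds in Ackr3 and Ptgs1, and the 509 cells are called Vwf-gated ECs below. The pan-endothelial Pecam1, which encodes CD31, was at 936, 1056, 1142 and 1181 in them, and none of the 11 pan-endothelial genes tested was called between genotypes. A UMI of Pdgfrb, Cspg4, Notch3 or Col1a1, which mark mural cells and fibroblasts, occurred in 242 of the cells (47.5%).

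Against general capillary ECs of the same mice, the Vwf-gated ECs were higher without overlap for 338 of 9048 genes (3.74%) and lower for 281 (3.11%). These are descriptions, since the cells were chosen on UMIs of the same libraries. Among genes at 100 CPM or more that did not overlap, the 25 with the highest ratio included genes of leukocyte capture and of prostanoid synthesis. Ackr1 (median log2 ratio 5.67) and Sele (4.73) were not among these 25. Selp (P-selectin) had the highest of the 25 and was at 711, 316, 183 and 242 against 12.3, 22.5, 8.33 and 4.22, a median log2 ratio of 4.92. Vcam1 had a median log2 ratio of 3.48 and Icam1 of 1.44. The lowest gated mouse lay above the highest capillary mouse for each of these genes, a condition of entry to the 25. Of the prostanoid enzymes, Ptgs2 (cyclooxygenase 2) was second of the 25, at 3.85, and Ptgs1 (cyclooxygenase 1) stood at 1.65. These ratios are against general capillary ECs alone. A Vcam1 UMI was in 30.98% of arterial ECs and 12.34% of aerocytes against 19.65% of gated cells (22.27%, 4.891% and 12.5% after thinning). An Icam1 UMI was in 67.45% of arterial ECs and 80.84% of aerocytes against 69.16% of gated cells (49.39%, 57.61% and 48.36% after thinning). Among Slc6a2 cells 45.22% held a Vcam1 UMI and 84.35% an Icam1 UMI.

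Receptors among the 25 were Rarb, a retinoic acid receptor (median log2 ratio 3.45), Il1r1, the interleukin 1 receptor (1.55), Nrp2, a co-receptor of VEGF-C (1.33), and Insr, the insulin receptor (1.32). Ch25h, which makes 25-hydroxycholesterol, was at 282, 112, 195 and 166 against 6.32 to 23.6. Fbln5, a protein of elastic fibres, had a ratio of 2.57, and Nr2f2 one of 2.24. Lower in the list stood Hs3st1, a heparan sulfate sulfotransferase (1.41), Kcnh1, a potassium channel (1.16), Rcan1, an inhibitor of calcineurin (1.15), and the deacetylase Hdac9 (1.01).

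The cells inside the gate also differed among themselves. Between Slc6a2 cells and Vegfc-only cells, 484 genes were higher without overlap (5.35%) and 466 lower (5.15%), whereas the Vegfc-only cells differed in this way from general capillary ECs for 171 genes upward (1.89%) and 182 downward (2.01%). Ptgs2 was at 2364, 1122, 333 and 772 in Slc6a2 cells and at 8.49, 15.9, 11.4 and 13.0 in Vegfc-only cells. Vcam1 was at 2078, 898, 493 and 716 against 144, 12.4, 28.9 and 8.38. General capillary ECs averaged 16.98 (SD 4.75) for Ptgs2 and 16.2 (SD 4.97) for Vcam1, and for both genes the Vegfc-only cells overlapped with them.

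Other genes high in Slc6a2 cells were Selp (mean 1288 against 106), Sele (E-selectin, 146 against 18.4), Olr1, the receptor for oxidized LDL (220 against 1.96), Fgl2 (200 against 22.5) and Cytl1 (179 against 2.56). Among genes at 100 CPM or more that did not overlap between the 2 kinds of cell in the 4 mice, Tmem45a had the highest median ratio, at 168, 176, 154 and 212 against 0, 0, 3.80 and 3.72. Transcription factors or their partners among the 25 with the highest ratio were Nr2f2, Tshz2 (370 against 22.8), Zfpm2 (122 against 11.99) and Lhx6 (117 against 13.5). Genes low in Slc6a2 cells included Sema3g (24.3 against 190), an arterial semaphorin, Bmp6 (127 against 467), Vegfa (97.6 against 250), Adrb1, the beta-1 adrenergic receptor (39.5 against 143), and Glp1r, the GLP-1 receptor (102 against 377).

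The adhesion genes Selp, Sele and Icam1 were higher together in Slc6a2 cells, and their promoters are shown for that reason. NF-kB is well known to drive these genes in inflamed endothelium. The 250 bases before the RefSeq start of each (GRCm38.p6, plus strand) were searched on both strands for GGNNNTTCC, a short form of the NF-kB motif, and matches are in capitals. Overlapping matches on the strands count as 1 place.
Selp, chr1:164115014-164115263: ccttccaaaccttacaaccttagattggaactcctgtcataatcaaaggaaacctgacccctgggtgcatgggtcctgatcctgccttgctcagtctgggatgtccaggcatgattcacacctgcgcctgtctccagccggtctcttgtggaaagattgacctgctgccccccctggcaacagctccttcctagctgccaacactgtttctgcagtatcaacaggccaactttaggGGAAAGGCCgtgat
Sele, chr1:164047984-164048233: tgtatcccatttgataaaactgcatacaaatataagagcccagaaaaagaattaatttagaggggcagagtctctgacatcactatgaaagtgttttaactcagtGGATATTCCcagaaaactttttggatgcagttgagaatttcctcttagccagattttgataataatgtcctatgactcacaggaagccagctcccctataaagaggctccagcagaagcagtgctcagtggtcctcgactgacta
Icam1, chr9:21015690-21015939: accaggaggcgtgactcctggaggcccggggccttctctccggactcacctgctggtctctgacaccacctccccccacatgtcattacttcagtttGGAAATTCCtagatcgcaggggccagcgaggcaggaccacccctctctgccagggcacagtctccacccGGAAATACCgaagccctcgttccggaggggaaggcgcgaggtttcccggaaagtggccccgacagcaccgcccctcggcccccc
The match began 14 bases before the start in Selp and 145 before it in Sele. Icam1 had 2 places, which began 153 and 84 bases before the start. The same window of Ptgs2 held no match, and Vcam1 was not searched. These letters occur in 15.7% of the 32851 promoters of this length. A stricter NF-kB motif of 10 letters was searched as well, occurs in 1.41% of them, and had no match in Selp, Sele or Icam1.

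The share of ECs inside the gate was then compared between genotypes. It was 11.3% in WT mouse 1 (exact 95% binomial interval 8.75 to 14.2), 15.05% in WT mouse 2 (12.6 to 17.8), 18.4% in Tubb3-/- mouse 1 (16.0 to 20.9) and 15.7% in Tubb3-/- mouse 2 (13.4 to 18.2). These intervals cover counting error alone. Each Tubb3-/- mouse exceeded each WT mouse, by 3.87 percentage points on average, but WT mouse 2 and Tubb3-/- mouse 2 were less than 1 point apart. A two-sided exact permutation of the 4 mice gave p = 0.3333, the smallest value that 2 against 2 mice allow. The edgeR quasi-likelihood test of cell numbers gave a log2 ratio of 0.35 (SE 0.19, adjusted p = 0.941).

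Median depth was also higher in both Tubb3-/- mice. After each EC was thinned to 3000 UMIs before the gate was applied, 8.15% and 12.1% of ECs passed in WT mice against 12.3% and 10.8% in Tubb3-/- mice, which overlap (exact permutation p = 0.667). With at least 2 Vwf UMIs required, the shares were 8% and 12.2% against 15.6% and 11.9%, which overlap as well (exact permutation p = 0.667). The Slc6a2 cells made up 2.73% and 4.54% of ECs in WT mice against 3.53% and 3.16% in Tubb3-/- mice, with overlap. The Vegfc-only cells made up 6.55% and 8.56% against 11.5% and 10.5%, without overlap (edgeR adjusted p = 0.166). In the whole-cell libraries alone the shares of the whole gate were 12.5% and 14.7% against 20.8% and 16.5%, without overlap (edgeR adjusted p = 0.755). In the mural cell-enriched libraries alone they overlapped, at 8.57% and 15.8% against 12.3% and 13.7%. Without WT mouse 2, the edgeR test passed, at an adjusted p of 0.0123, with the lone WT mouse assumed to vary like the others.

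**Figure D2:**
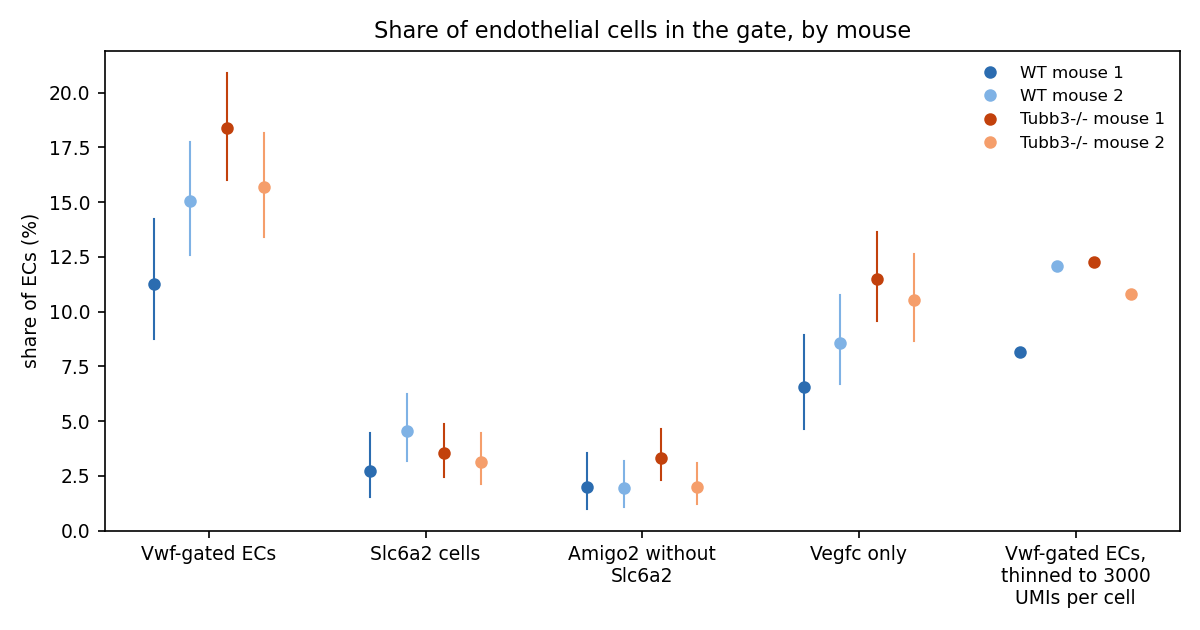
Share of ECs (%, linear axis from 0) in the gate, in each kind of gated cell and in the gate after thinning, with 1 point per mouse and exact 95% binomial intervals (none for the thinned shares). The Tubb3-/- mice lie above the WT mice for the whole gate and the Vegfc-only cells, and overlap with them for the Slc6a2 cells and after thinning.

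To compare genotypes gene by gene, UMIs of the Vwf-gated ECs were summed per mouse and fitted in edgeR (quasi-likelihood F test), and p-values were adjusted by the Benjamini-Hochberg method over every gene tested, with a threshold of 0.05. Of 9702 genes, 148 were called (1.53%), 45 higher in Tubb3-/- mice (0.464%) and 103 lower (1.06%), and 1185 had an unadjusted p under 0.05. The largest falls were in genes that include markers of mesothelium, and the largest rises in genes of dividing cells, followed by genes such as Lama1, Rgcc, Cxcl12, Cd34 and Col4a1. Vcam1, Icam1, Ptgs2 and Ptgis fell as well.

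A small number of cells carried mesothelial or mitosis markers or were marked as doublets. Of the 509 cells, 4 held at least 10 UMIs of 7 mesothelial markers and 17 held at least 10 UMIs of 10 mitosis genes. Scrublet marked 5 as doublets. The 17 were picked on mitosis genes alone, which dividing ECs hold as well, so they need not be another kind of cell. With these 26 cells left out (2 and 5 from the WT mice, 10 and 9 from the Tubb3-/- mice), 0 of 9206 genes were called, and 918 had an unadjusted p under 0.05. No gene described below was therefore called in the remaining 483 cells. There the 7 mesothelial markers and most mitosis genes were too low to be tested, while the log2 fold changes of many other genes stayed about as large with an adjusted p above the threshold, and both values are given below for the genes this concerns. Both marker sets were chosen after the calls had been seen. The numbers of calls under each setting are drawn in the plot of called genes.

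**Figure D3:**
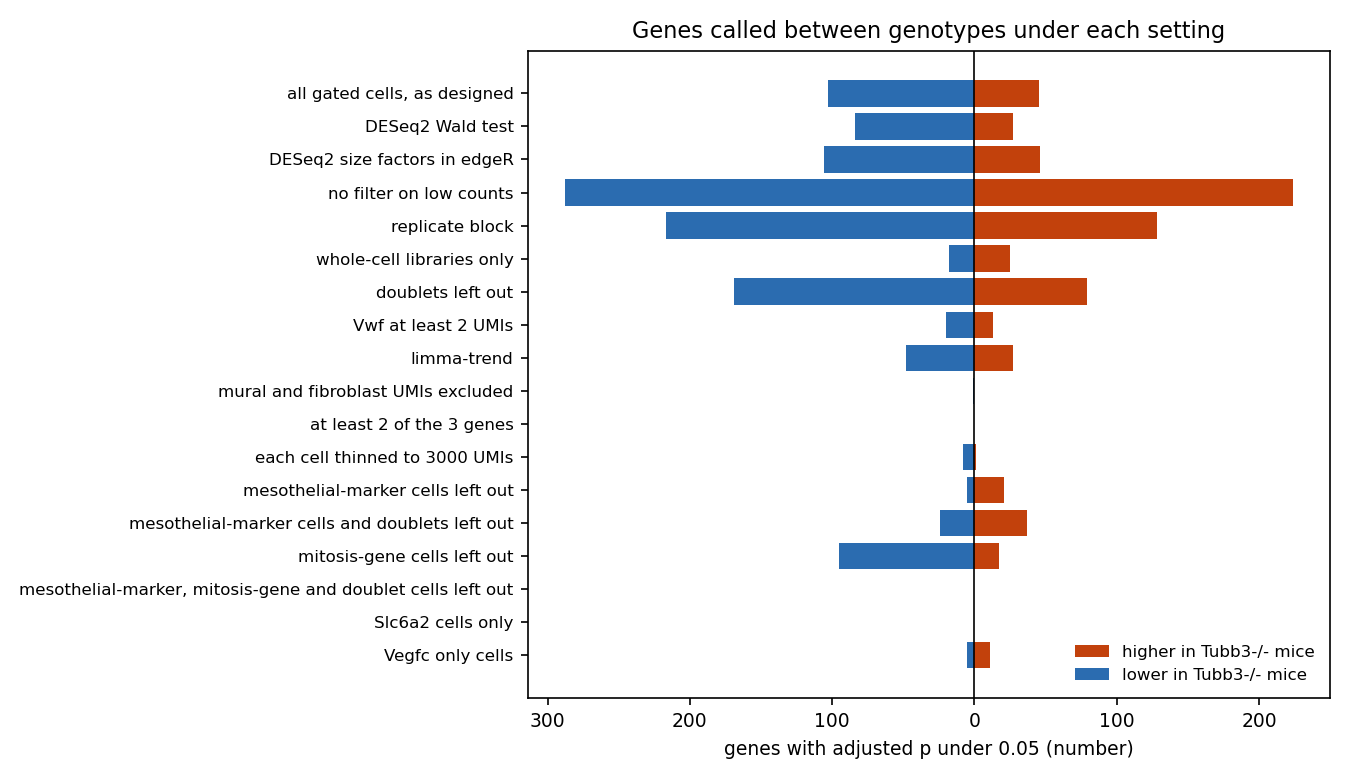
Number of genes called between genotypes in Vwf-gated ECs (edgeR adjusted p under 0.05, other tests where named), with bars to the right for genes higher in Tubb3-/- mice and to the left for genes lower. The bars start at 0 and range from 0 calls, with the 3 kinds of cell left out or in Slc6a2 cells alone, to 512 with no filter on low counts.

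Mesothelial genes fell in Tubb3-/- mice. Msln, which encodes mesothelin, was at 97.5 and 153 normalized CPM in WT mice against 5.68 and 6.60 in Tubb3-/- mice (log2 fold change -4.40, SE 0.30, adjusted p = 5.6e-05). All 7 mesothelial markers, which were chosen after the calls had been seen, were called lower. Their median log2 fold change was -5.47, against -0.0033 over all genes. Most of these UMIs came from 4 cells, 1 in WT mouse 1 and 3 in WT mouse 2, each with 148 to 182 mesothelial UMIs and 0 to 9 pan-endothelial UMIs, where the median gated cell had 44. They had entered on 1 or 2 Vwf UMIs, and 1 to 5 UMIs of Cdh5. Without them Msln was too low to be tested. With all 26 cells left out it had 2 and 7 UMIs in WT mice against 10 and 11, or 4.75 and 7.36 CPM against 5.03 and 7.54.

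The same 4 cells bore on other genes that fell. Grip1, Gpm6a, Gpc3, Igfbp6, C3, Rarres2, C4b, Igfbp5, Rnase4, Dcn, Celf2 and Ptprd were, with Msln and Ptgs2, among the genes with the largest falls of those with at least 50 CPM. Complement C3, for example, was at 458 and 285 in WT mice against 27.9 and 31.2 in Tubb3-/- mice (log2 fold change -3.62, SE 0.24). Without the 4 cells its log2 fold change was -0.53 (adjusted p = 0.512). Igfbp5, an IGF-binding protein, went from -2.69 to -1.35 (adjusted p = 0.109). Of these 12 genes, Grip1 and Gpm6a could no longer be tested and none of the other 10 was called. In all, 26 of 9531 genes were called without the 4 cells (0.273%), 21 higher (0.22%) and 5 lower (0.0525%), and each was among the 148. Vcam1, Ptgs2 and Car8, described below, were still called then (adjusted p = 0.0431, 0.0456 and 0.0238).

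**Figure D4:**
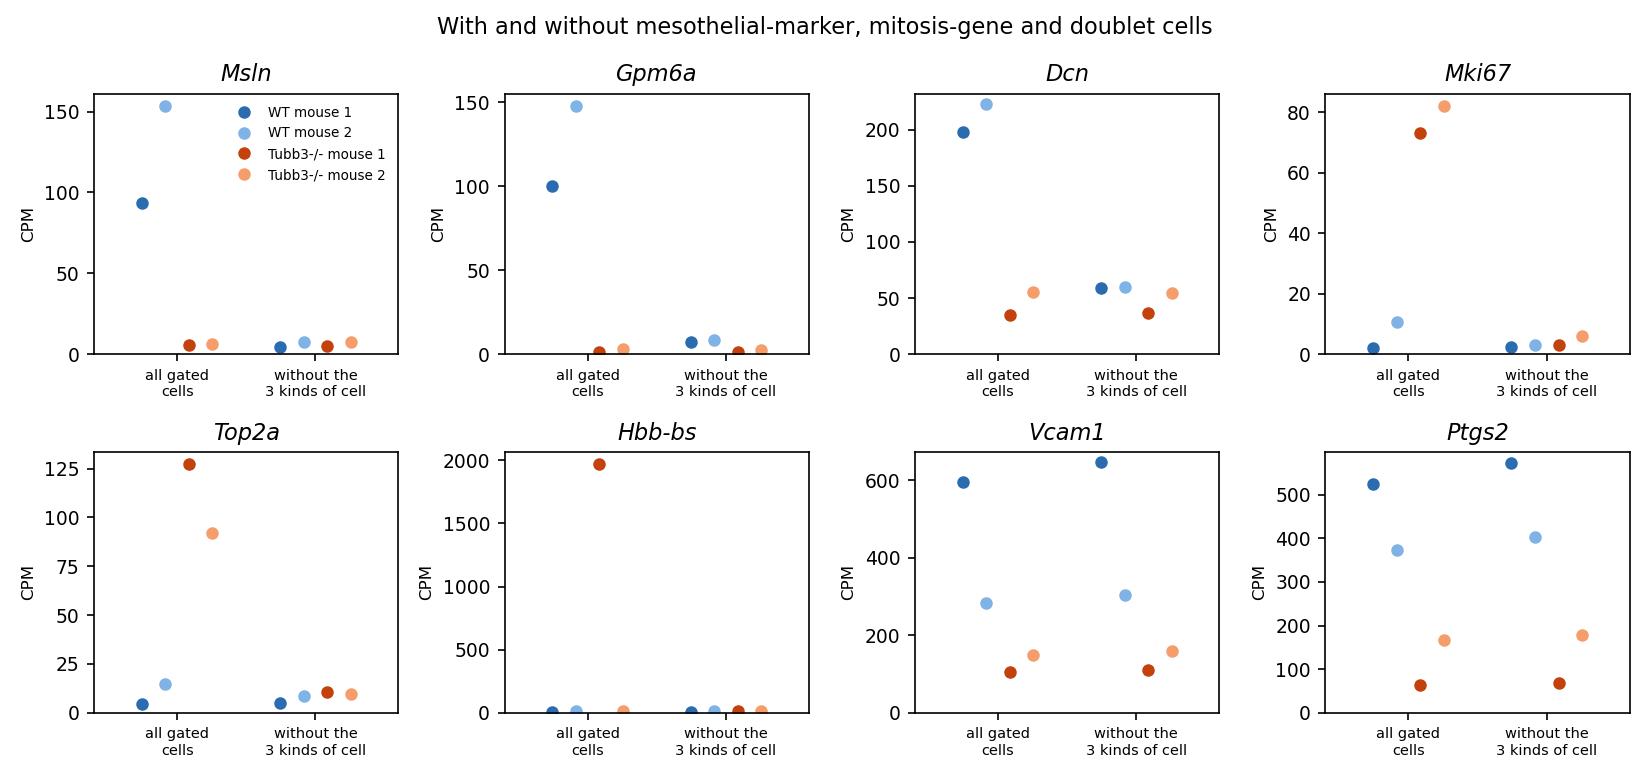
CPM (linear axis from 0) of 8 genes in each mouse, over all gated cells (left of each panel) and without the mesothelial-marker, mitosis-gene and doublet cells (right). The genotype gap of Msln, Gpm6a, Dcn, Mki67 and Top2a closes or narrows on the right, and that of Vcam1 and Ptgs2 does not.

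Mitosis genes rose. Top2a, the topoisomerase that untangles chromosomes, was at 4.54 and 14.5 in WT mice against 130 and 91.8 in Tubb3-/- mice (log2 fold change 3.29, SE 0.35, adjusted p = 0.00125). Of 13 cell cycle genes tested, 8 were called higher and none lower, against 0.464% and 1.06% of all genes tested. The 8 were Mki67, Top2a, Cdk1, Ccnb2, Ube2c, Birc5, Rrm2 and Hmgb2. The median log2 fold change of the 13 was 3.29. The replication genes Pcna (0.10) and Mcm5 (0.28) were not called. Cenpf had 0 and 0 UMIs in WT mice against 146 and 81 in Tubb3-/- mice.

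Counted by cell, mitosis-gene cells numbered 0 and 1 in WT mice against 10 and 6 in Tubb3-/- mice. Their shares of gated cells were 0% (of 62 cells, exact upper bound 5.78%), 0.862%, 5.49% and 4.03% (exact permutation p = 0.3333, the smallest possible). After thinning they were 0%, 0.893%, 5.65% and 4.11%. General capillary ECs showed a like pattern, with 0%, 0.917%, 4.31% and 3.25%. Arterial ECs overlapped between genotypes, with 0%, 1.61%, 3.66% and 1.35%. The ECs with Vwf and no vein gene had 2.63%, 0%, 2.99% and 3.70%, and aerocytes 0%, 0%, 0.855% and 0.917%. Of the 17 cells, 13 were Vegfc-only cells and 3 were Slc6a2 cells. When they were left out, 112 genes were called, 17 higher and 95 lower, and Hmgb2 and Smc4 were no longer called (log2 fold changes -0.10 and 0.15).

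Vcam1 and Icam1, which hold leukocytes to the vessel wall, fell. Vcam1 (mm10 chr3:116109949-116129688) was at 621 and 283 in WT mice against 106 and 149 in Tubb3-/- mice (log2 fold change -1.80, SE 0.32, adjusted p = 0.020). Icam1 (chr9:21015985-21028817) was at 968 and 714 against 467 and 447 (-0.87, SE 0.16, adjusted p = 0.0272). For both genes the mice did not overlap, which held for 21.8% of all genes tested in this direction and 21.6% in the other. Selp, at 703 and 313 against 181 and 238, was not called (-1.25, adjusted p = 0.0913), nor was Sele, at 97.5 and 68.8 against 38.8 and 16.2 (-1.50, adjusted p = 0.0734). Both were called under some other settings, Sele in 8 of 21 and Selp in 4 of 21. Of 20 adhesion and recruitment genes tested, 14 were below 0, with a median of -0.72, and 50.4% of all genes were below 0. Among the 20, 2 were called lower and 2 higher, against 1.06% and 0.464% of all genes tested. The 2 that rose were Cxcl12, the ligand of CXCR4, at 304 and 252 against 493 and 486 (0.83, adjusted p = 0.0254), and Cd34, a sialomucin, at 175 and 188 against 333 and 294 (0.78, adjusted p = 0.0355). In the 483 cells Cxcl12 had a log2 fold change of 0.81 and Cd34 of 0.80, each with an adjusted p of 0.0846.

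Ptgs2 and Ptgis, enzymes of prostanoid synthesis, fell with them. Ptgs2 (chr1:150100031-150108227) was at 546 and 372 in WT mice against 64.8 and 167 in Tubb3-/- mice (log2 fold change -1.98, SE 0.36, adjusted p = 0.0212). Ptgis, the prostacyclin synthase, was at 90.7 and 83.4 against 25.6 and 39.6 (-1.42, SE 0.24, adjusted p = 0.0182). Ptgs1 was not called (-0.57, adjusted p = 0.179). These 2 were the calls among 14 vasoactive genes, and Ptgis was the sole call among 16 genes of haemostasis and storage granules. Over all genes tested, 1.06% were called lower and 0.464% higher. Edn1 (endothelin 1, log2 fold change 0.99, adjusted p = 0.162) and Thbd (thrombomodulin, 0.15) were not called.

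Vein markers outside the rule moved in part. Car8 fell from 109 and 94.98 to 30.3 and 44.4 (log2 fold change -1.44, SE 0.22, adjusted p = 0.0119), and Bst1 from 99.8 and 112 to 44.5 and 59.4 (-1.05, SE 0.20, adjusted p = 0.0287). They were the calls among the 8 vein genes tested, where 1.06% of all genes tested were called lower and 0.464% higher. Prss23 (-1.20, adjusted p = 0.0827) was not called, and Nr2f2, at 156 and 141 against 159 and 140, had a log2 fold change of 0.02. Slc6a2 cells, in which Car8, Bst1, Vcam1 and Ptgs2 are high, made up 24.2% and 30.2% of gated cells in WT mice against 19.2% and 20.1% in Tubb3-/- mice, and the part of this share in the falls was not tested.

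**Figure D5:**
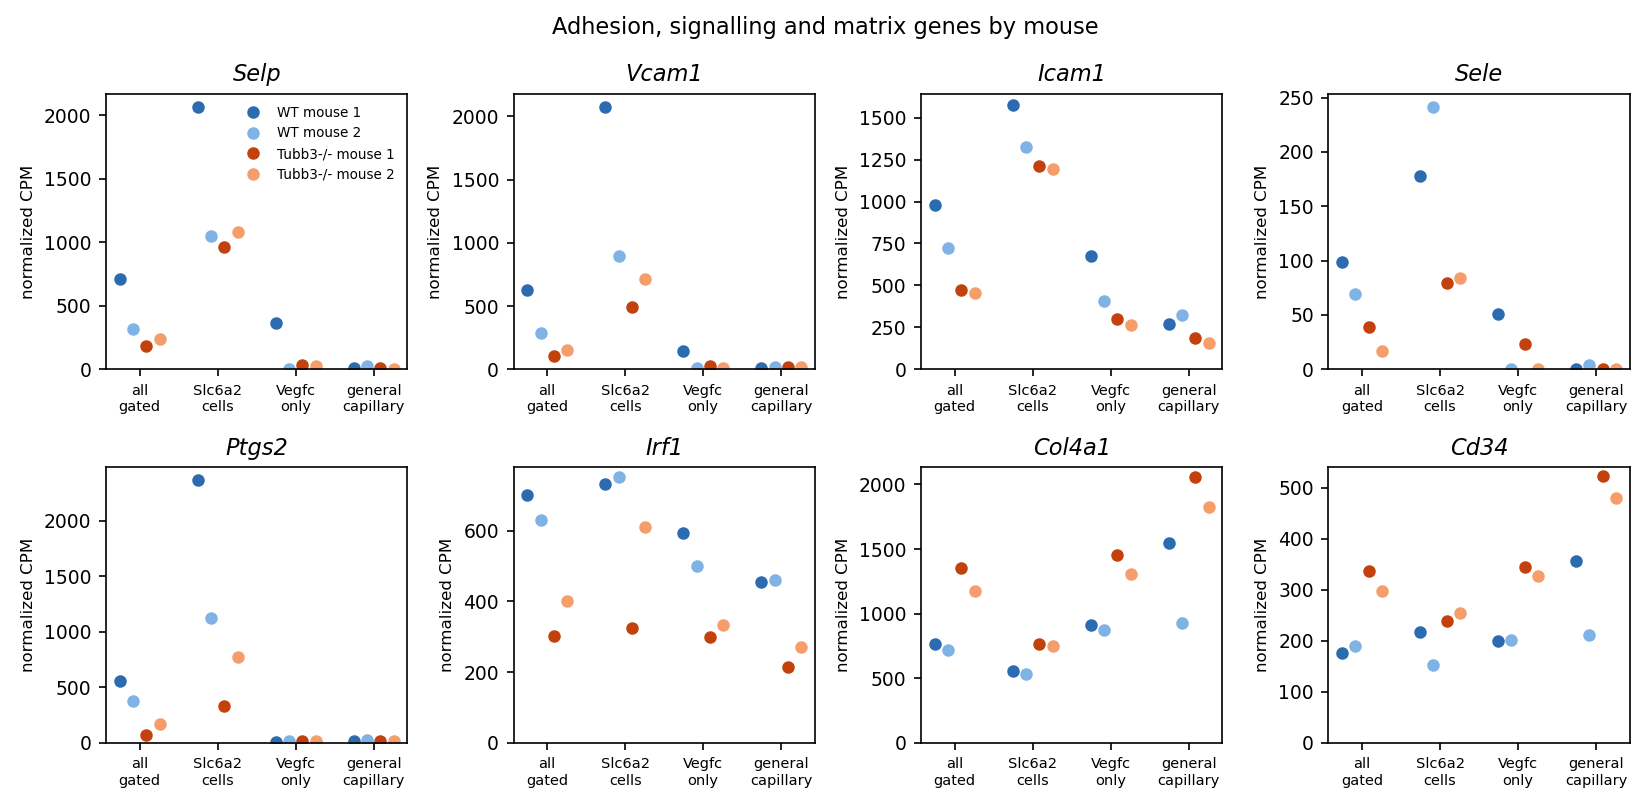
Normalized CPM (linear axis from 0) of 8 genes in each mouse, in all Vwf-gated ECs, Slc6a2 cells, Vegfc-only cells and general capillary ECs. Vcam1 and Ptgs2 are high in Slc6a2 cells and separate the genotypes there, and Irf1 and Col4a1 separate the gated mice by genotype.

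Within Slc6a2 cells alone, 0 of 5381 genes were called, and 326 had an unadjusted p under 0.05. This fit rested on 15 and 35 cells in WT mice against 35 and 30 in Tubb3-/- mice. Vcam1 had a log2 fold change of -1.28 there, Ptgs2 of -1.65, Car8 of -0.87, Bst1 of -0.41 and Icam1 of -0.28. On the scale shared by all groups, the Vcam1 levels of 2078 and 898 in the WT mice did not overlap with 493 and 716, and neither did the Ptgs2 levels of 2364 and 1122 with 333 and 772. The mice did not overlap in that direction for 17.5% of the genes tested in Slc6a2 cells, and in the other for 19.4%. In Vegfc-only cells Ptgs2 had a log2 fold change of -0.16 (edgeR adjusted p = 0.964). Over the 483 cells left of the whole gate, the log2 fold changes of Vcam1 (-1.80), Ptgs2 (-2.00) and Car8 (-1.46) were as large as before. Each had an edgeR adjusted p of 0.0603. The log2 fold change of Icam1 was as large too (-0.90, adjusted p = 0.0798). Those of Ptgis (-1.01, adjusted p = 0.155) and Bst1 (-0.80, adjusted p = 0.22) were smaller.

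Interferon response genes lay mostly below 0, with 24 of 27 negative and a median log2 fold change of -0.48, but Irf1 was the sole call. Of all genes tested, 50.4% were negative and 1.06% were called lower. In general capillary ECs 23 of 29 of these genes were negative, with a median of -0.17 and no call. Irf1, a transcription factor, was at 694 and 623 in WT mice against 299 and 396 in Tubb3-/- mice (-0.92, SE 0.17, edgeR adjusted p = 0.0223). In the 483 cells the difference was -0.94 (adjusted p = 0.0846). Oasl2 (-1.07, adjusted p = 0.0639), Ifit1 (-0.85, adjusted p = 0.0923) and the chemokine gene Cxcl10, at 68.0 and 59.1 against 18.5 and 48.6 (-0.93, adjusted p = 0.357), were not called. The 13 antigen presentation genes showed no call and a median of 0.04. General capillary ECs gave a log2 fold change of -0.92 for Irf1 as well (adjusted p = 0.137).

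Immediate-early genes respond within minutes to many stimuli. They and the KLF genes listed with them were lower in 13 of 15 cases, and 3 were called lower. Over all genes tested, 50.4% were negative and 1.06% were called lower. Fos was at 2329 and 2151 in WT mice against 1433 and 1320 in Tubb3-/- mice (-0.70, SE 0.12, adjusted p = 0.020). Egr1 (-0.65, adjusted p = 0.0298) and Nr4a1 (-0.999, adjusted p = 0.020) were the others. Klf2 and Klf4, factors induced by blood flow, had log2 fold changes of 0.14 and -0.01. In the 483 cells Nr4a1 was at -0.91 (adjusted p = 0.0787), Fos at -0.47 (adjusted p = 0.235) and Egr1 at -0.44 (adjusted p = 0.285). General capillary ECs showed a like pattern, with 12 of the 15 genes negative and no call. The median log2 fold change of the list was -0.20 there against -0.41 in Vwf-gated ECs.

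Matrix genes split. The collagen IV chains of the basement membrane rose, Col4a1 from 760 and 709 to 1340 and 1158 (log2 fold change 0.77, SE 0.14, adjusted p = 0.0211) and Col4a2 from 535 and 439 to 861 and 770 (0.75, SE 0.15, adjusted p = 0.0383). Lama1, a laminin chain, rose from 99.8 and 85.3 to 224 and 191 (1.19, SE 0.17, adjusted p = 0.00731). Ccn1, a target of YAP, fell from 145 and 133 to 50.6 and 73.2 (-1.17, SE 0.21, adjusted p = 0.020). Of 25 basement membrane and matrix genes on the list, which does not hold Lama1, 2 were called higher and 1 lower. The shares over all genes tested were 0.464% higher and 1.06% lower. Among 16 BMP and TGF-β genes, Tgfb2 was the sole call, at 59.0 and 49.4 against 8.04 and 16.8 (-2.13, SE 0.35, adjusted p = 0.0153). In the 483 cells the log2 fold changes of Lama1 (1.16, adjusted p = 0.0603), Col4a1 (0.74, adjusted p = 0.0846) and Col4a2 (0.69, adjusted p = 0.139) were nearly as large, and the differences of Ccn1 (-0.90, adjusted p = 0.17) and Tgfb2 (-1.56, adjusted p = 0.141) were smaller. Within Slc6a2 cells alone the rises were smaller, at 0.39 for Lama1, 0.45 for Col4a1 and 0.10 for Col4a2, and none was called.

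Other genes rose with them. Lpl, which encodes lipoprotein lipase, was at 227 and 217 in WT mice against 436 and 348 in Tubb3-/- mice (0.83, SE 0.17, adjusted p = 0.0383). Rgcc, a regulator of the cell cycle, was at 74.8 and 49.4 against 125 and 138 (1.15, SE 0.21, adjusted p = 0.0226). Slc24a3, a sodium-calcium exchanger (1.44), Armcx4 (1.05) and the transcript Gm26917 (1.28) were called as well. In the 483 cells these 5 genes stood at 0.76 (Lpl, adjusted p = 0.121), 1.15 (Rgcc, 0.0798), 1.49 (Slc24a3, 0.0603), 0.98 (Armcx4, 0.0728) and 1.28 (Gm26917, 0.0603). Cd34 and Col4a1 were higher in general capillary ECs than in Slc6a2 cells (mean 392 against 216 for Cd34 and 1590 against 650 for Col4a1). The part of the Slc6a2 share in these rises was not tested. In general capillary ECs the log2 fold changes between genotypes were 1.11 for Lama1, 0.83 for Cd34, 0.65 for Col4a1 and 0.70 for Col4a2. Rgcc stood there at 0.90, Armcx4 at 0.83 and Slc24a3 at 1.15. Cxcl12 (0.35), Lpl (0.22) and Gm26917 (0.57) rose less there, and none of these genes was called in those cells. In Vwf-gated ECs the 7 general capillary markers on the list showed no call, with a median of 0.18. In Vegfc-only cells taken alone, 16 of 8280 genes were called (0.193%), 11 higher (0.133%) and 5 lower (0.0604%), and 13 of them were among the 148. Lpl, Rgcc, Slc24a3, Armcx4 and Gm26917 were not called there (edgeR adjusted p from 0.102 to 0.199). Of 13 cell cycle genes tested there, 4 were called higher, and 13 of the 17 mitosis-gene cells were Vegfc-only cells.

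The other lists gave few calls, where 0.464% of all genes tested were called higher and 1.06% lower. Cxcl12 was the sole call among 10 arterial genes, and Pdpn among 3 lymphatic genes, at 18.1 and 17.5 against 3.31 and 3.60 (-2.33, adjusted p = 0.0478). Pdpn is also made by mesothelium, and it could not be tested in the 483 cells. Aerocyte genes (6 tested), VEGF and angiopoietin genes (11), Notch genes (9), mesenchymal transition genes (8), p53 and senescence genes (7), tubulins (10) and hypoxia and glycolysis genes (15) had no call. The medians of these 7 lists ran from -0.31 for p53 genes to 0.37 for hypoxia genes. The 3 markers of activated capillary ECs, Ntrk2, Lrg1 and Fxyd5, had a median of 0.62 and no call. Ntrk2 varied within genotypes, at 145 and 30.1 in WT mice against 269 and 109 in Tubb3-/- mice. Among tubulins, Tubb2b was at 22.7 and 20.4 against 55.4 and 43.2 (1.23, adjusted p = 0.0639).

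Markers of other cell types were read in the same sums. Of 7 fibroblast markers, Dcn was called lower and 6 lay below 0 (median -0.84), against 1.06% and 50.4% of all genes tested. None of 6 mural markers (median -0.81), 4 immune markers (median 0.01), 5 epithelial markers (median -0.77) or 3 erythroid markers (median 5.48) was called. Acta2, the smooth muscle actin, was at 1007 and 196 in WT mice against 99.3 and 416 in Tubb3-/- mice. The erythroid median came from 1 cell of Tubb3-/- mouse 1, which held 6502 of the 6560 haemoglobin UMIs there and was also a mitosis-gene cell. When cells with a UMI of Pdgfrb, Cspg4, Notch3 or Col1a1 were left out, 1 of 7405 genes was called, and it was not among the 148. That fit dropped 242 of the 509 cells, and the log2 fold changes stayed about as large or larger for Ptgs2 (-2.60), Vcam1 (-2.31), Icam1 (-1.14), Gm26917 (1.45), Lama1 (1.28) and Col4a1 (0.76), with adjusted p from 0.0702 to 0.336.

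Finally, the genotype difference in Vwf-gated ECs was set against that in general capillary ECs of the same mice by an interaction term, in a fit with a term for each mouse. The number of calls depended on the settings, as given below, with 101 when the replicate number was a block and 121 with no filter on low counts. In the main fit, 1 of 10660 genes was called (0.00938%), and 662 had an unadjusted p under 0.05. It was Dcn (chr10:97479609-97518143), which encodes the matrix proteoglycan decorin. Dcn stood at 208 and 224 in the gated cells of the WT mice and at 36.6 and 55.6 in those of the Tubb3-/- mice, while in general capillary ECs it stood at 81.8 and 128 against 64.1 and 111. The difference between the log2 fold changes was -1.93 (SE 0.22, adjusted p = 0.0475). Without mesothelial-marker cells it was -0.03 (SE 0.32, adjusted p = 1), and 0 of 10577 genes were called, with 579 at an unadjusted p under 0.05. In general capillary ECs taken alone, 0 of 10427 genes were called between genotypes, with 1253 at an unadjusted p under 0.05. A call in one group and not in the other is thus no evidence that the groups differ, and for Vcam1, Ptgs2, Icam1, Irf1 and Col4a1 the interaction was not called.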

How the data were processed

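The authors aligned and counted the reads with Cell Ranger 7.1.0 on mm10, per the labels' processing notes, and deposited a gene-by-cell matrix of raw UMI counts for each mouse and library, after the 4 mice of a pool had been told apart by lipid-bound sample tags. Here, cells of the 8 matrices were filtered and gated on these counts, and counts of both libraries of a mouse were summed, so that n = 2 mice a genotype. The libraries held 3202 to 5051 cells with 41462258 to 95036340 gene UMIs, and the gate 460017 to 2159886 UMIs a mouse. edgeR 4.0.16 (TMM, filterByExpr, quasi-likelihood test, R 4.3.3) compared genotypes, without the 11 rule genes. Cells were read with scanpy 1.11.5 and doublets sought with its Scrublet, which marked 0.982% of whole-cell and 3.82% of mural cell-enriched cells. DESeq2 1.42.0 and limma 3.58.1 were alternatives, as were other gates, filters, thinning and left-out mice. The fits were tested on simulated data. Genes named for their change were up to 15 in each direction, called, at 50 CPM or more on average, with both Tubb3-/- mice on one side of both WT mice. One gene that met this rule is not reported here. Genes named for a difference between kinds of cell came from the 25 with the highest or lowest median log2 ratio at 100 CPM or more, among genes whose 4 mice did not overlap between the kinds, and the rest from gene lists. The gate, the lists and the named genes were chosen with earlier results of these data known. The study compared cell numbers with a Bayesian model (scCODA), which was not used here. Selp, Icam1 and Vcam1 overlap genes on the other strand (Gm16587 and Gm16548, Gm47079, Gm43109), and whether counting used strand is not given in the sources used here.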

Additional observations from a re-analysis of the deposited data

Results flagged for a closer look

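Dcn was singled out because its genotype difference was not the same in Vwf-gated ECs as in general capillary ECs of the same mice. The interaction term was -1.93 on the log2 scale (SE 0.22, edgeR adjusted p = 0.0475). In gated cells it had 91 and 229 UMIs in WT mice, against 76 and 92 in Tubb3-/- mice. These counts were 25 and 57 against 73 and 79 once the mesothelial-marker, mitosis-gene and doublet cells were left out. Depth differed between the mice, and in CPM these were 59.4 and 59.9 in WT mice against 36.75 and 54.2 in Tubb3-/- mice. The log2 fold change was then -0.42 (edgeR adjusted p = 0.618). Without the 4 mesothelial-marker cells alone the interaction was -0.03 (adjusted p = 1). With groups of 2 mice, no check for a mouse far from its group was made.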

How the results depend on the processing

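The number of genes called between genotypes (148) depended on most settings tried. It was 111 with DESeq2 and 152 with DESeq2 size factors. It was 512 with no filter on low counts, 43 in whole-cell libraries alone, 248 without doublets, 33 with at least 2 Vwf UMIs, 75 with limma-trend, 9 with cells thinned to 3000 UMIs, 1 without cells holding a mural or fibroblast UMI, and 0 with at least 2 of the 3 vein genes (469 at an unadjusted p under 0.05). Settings added after seeing the data gave 26 without mesothelial-marker cells, 61 without these and doublets, 112 without mitosis-gene cells, 0 without all 3 kinds of cell, 0 in Slc6a2 cells and 16 in Vegfc-only cells. Leaving out 1 mouse gave 22 to 352 calls: 283 without WT mouse 1, 202 without WT mouse 2, 22 without Tubb3-/- mouse 1 and 352 without Tubb3-/- mouse 2, with the lone mouse assumed to vary like the others. The interaction count of 1 became 2 with DESeq2, 0 with its size factors (657 at an unadjusted p under 0.05), 121 with no filter, 31 in whole-cell libraries, 36 without doublets, 0 with at least 2 Vwf UMIs (520), 10 to 164 with 1 mouse left out (164 without WT mouse 2), 0 without mesothelial-marker cells and 5 without all 3 kinds of cell. The cause of these shifts was not tested.

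With the replicate number as a block, 345 genes were called between genotypes and 101 in the interaction, where each mouse has its own term already and the block lets the number act differently in the 2 kinds of cell. Mice with the same number did not deviate together (r = 0.0194), and no label ties them to a shared litter or day. With 2 mice a genotype both pairs must give the same r, so this is 1 value. The number coincides with sex as read from Xist and Y-linked transcripts, so this block also takes out a difference between the sexes. The difference in share of ECs (3.87 points) was -0.289 points in Slc6a2 cells alone, the other way round, and 1.98 to 5.75 points with 1 mouse left out. It was 7.98 points without cells holding a mural or fibroblast UMI (edgeR adjusted p = 0.198), 0.451 points, with overlap, with at least 2 of the 3 vein genes, 1.43 points after thinning and 0.835 points in mural cell-enriched libraries alone. Of 34 genes followed, 31 kept their direction wherever they could be fitted, and 2 (Grip1 and Gpm6a, which could not be fitted in some settings) kept their call. The exceptions were Hmgb2 (-0.10 without mitosis-gene cells and -0.17 without all 3 kinds of cell), Rgcc (-0.38 in Slc6a2 cells) and Igfbp5 (0.20 without cells holding a mural or fibroblast UMI), each not called there. On simulated counts, the genotype test found 41% of 2-fold and 88% of 4-fold changes, and the interaction test 11% and 75%, so smaller changes may be missed at this depth.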

Other observations

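The 566 ECs with Vwf and none of Slc6a2, Amigo2 and Vegfc were close to general capillary ECs in several vein markers. Nr2f2 averaged 26.7 normalized CPM in them (SD 3.60, n = 4 mice), against 420 (SD 145) in Slc6a2 cells and 29.4 (SD 4.69) in general capillary ECs. Gpihbp1 averaged 1261 (SD 118) in these cells, above the 451 (SD 78.5) of Slc6a2 cells in each mouse. Selp was uneven among them, with 1 and 1 UMIs in WT mice against 231 and 121 in Tubb3-/- mice, and it was the 1 gene called between genotypes among 9319 tested in these cells (edgeR adjusted p = 0.0485, higher in Tubb3-/- mice). Just 2.83% of the 566 cells held a Selp UMI, so the call rests on few cells. In Vwf-gated ECs Selp was lower in Tubb3-/- mice and not called, and the difference between these 2 kinds of cell was not tested. Sele had 0 and 0 against 72 and 17 UMIs (adjusted p = 0.42). Ephb4 averaged 185 (SD 29.9) in these cells and 242 (SD 56.1) in Slc6a2 cells, and Bst1 7.16 (SD 1.99) and 255 (SD 59.9). Lymphatic ECs (75 cells) held mitosis-gene cells at 0%, 7.14%, 14.8% and 19.0% in WT mouse 1, WT mouse 2, Tubb3-/- mouse 1 and Tubb3-/- mouse 2, from 13, 14, 27 and 21 cells. In lymphatic ECs 0 of 3901 genes were called between genotypes, with 427 at an unadjusted p under 0.05. Arterial ECs gave 77 calls among 7962 genes, 51 higher in Tubb3-/- mice and 26 lower, and aerocytes gave 4 among 8970, each of them higher.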
